A study of Mus musculus with 2 samples.

Results

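Tac2-expressing excitatory nuclei of the adult mouse dorsal spinal cord are described here. They were 54 of 7610 nuclei, 24 from a naive and 30 from an injured library. A nucleus was taken as excitatory when it held at least 1 unique molecule (UMI) of Slc17a6, the vesicular glutamate transporter VGLUT2, and no UMI of Gad1, Gad2, Slc32a1 or Slc6a5, the genes for making and moving GABA and glycine. A member also held at least 1 UMI of Tac2 and none of the neuropeptide genes Pdyn, Tac1, Adcyap1 and Cck. The other 1328 excitatory nuclei, 685 naive and 643 injured, formed the reference. The members were selected on the counts of these 10 genes, so their levels are given as a description, with no test.

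All nuclei carried 1 Pdyn-IRES-Cre allele and 1 R26-LSL-Sun1.eGFP allele, so that cells which had expressed prodynorphin at any time in life kept a green nuclear envelope. They were sorted on that fluorescence from lumbar (L3-L5) dorsal cord of adult mice of either sex, in 1 pool of 8 mice a group. The injured mice had an incision of the left plantar hindpaw at postnatal day 3, and the naive mice were littermates exposed to isoflurane at that age. A member with no Pdyn UMI is therefore taken as a nucleus of the prodynorphin lineage in which the transcript was not detected. How pure the sorting was could not be measured here, so single nuclei from outside that lineage may be among the members.

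Tac2 encodes the precursor of neurokinin B, a peptide of the tachykinin family. Its sister gene Tac1 encodes substance P and neurokinin A, and the family acts on 3 receptors, Tacr1, Tacr2 and Tacr3, with Tacr3 the preferred receptor of neurokinin B. In the dorsal horn, neurokinin B is known as a mark of excitatory interneurons of the inner superficial laminae, where neurons with other peptides, such as Sst, Cck or Penk, also lie.

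Among excitatory nuclei, members made up 3.39% in the naive library (24 of 709, exact 95% interval 2.18 to 4.99) and 4.46% in the injured library (30 of 673, interval 3.03 to 6.30). With every nucleus thinned to 4000 UMIs the shares were 3.99% and 4.21%. The intervals overlapped in both settings, and with 1 pool of mice a group there was no test between them. Exact intervals here and below cover counting error only, not the spread between mice.

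Tac2 lies on the forward strand of chromosome 10 (chr10:127724478-127731768, mm10). In the naive library 16 of 24 members held exactly 1 Tac2 UMI, and in the injured library 20 of 30 did. The median was 1 UMI in both, and the highest naive nucleus held 10 UMIs and the highest injured one 11. Altogether 18 members, 8 naive and 10 injured, held at least 2 UMIs, and 16 held at least 3. Tac2 thus fell into many nuclei at 1 UMI and a smaller number between 2 and 11.

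**Figure D1:**
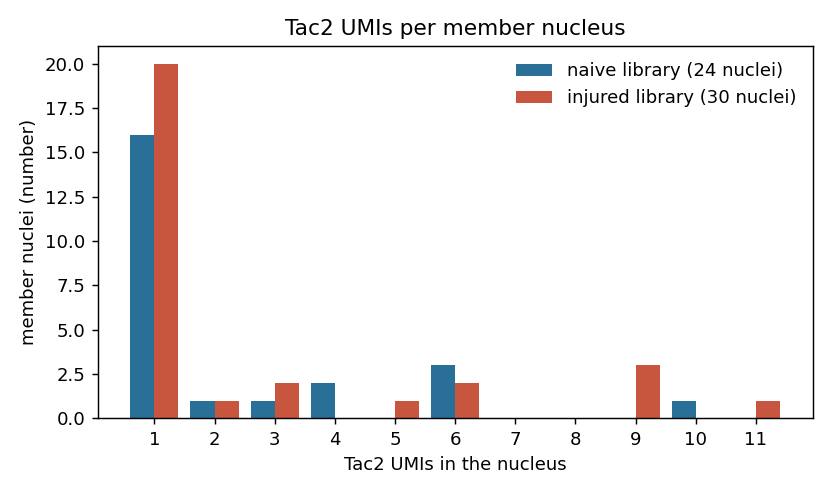
Number of member nuclei (y axis) by their Tac2 UMIs (x axis), with blue bars for the naive and red bars for the injured library. The bars at 1 UMI stand for 16 naive and 20 injured nuclei, and the highest nuclei held 10 and 11 UMIs.

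Summed over members and scaled to 1000000 UMIs (CPM), Tac2 stood at 302.2 CPM for naive members (57 UMIs, exact Poisson interval 228.9 to 391.5) and at 275.0 CPM for injured members (83 UMIs, interval 219.1 to 340.9). The reference, in which Tac2 came only with another peptide of the rule, stood at 19.2 and 14.0 CPM. In nuclei with oligodendrocyte markers, which should lack the gene, 1 of 45 naive (2.22%) and 2 of 52 injured nuclei (3.85%) held a Tac2 UMI, at 8.15 and 9.35 CPM. Those nuclei were shallower, with medians of 2195 and 2803.5 UMIs against 7664.5 and 9891 in members. Of inhibitory nuclei, 6.26% of naive and 8.48% of injured ones held Tac2, at 24.5 and 27.2 CPM. Free RNA can give a single Tac2 UMI, so a member with 1 UMI cannot by itself be told apart from background, and such members are described separately below.

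The rule left out nuclei close to its limits. Of 150 excitatory nuclei with Tac2, 96 held a UMI of another rule peptide, most often Tac1 (56 nuclei), then Pdyn (46) and Adcyap1 (45), and rarely Cck (4). In 31 of the 96, that was exactly 1 UMI. A further 5 nuclei with Slc17a6 and Tac2 and no rule peptide were left out by exactly 1 UMI of an inhibitory gene. Just outside on the other side lay 550 excitatory nuclei with none of the 5 peptides, against the 36 members with 1 Tac2 UMI just inside.

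Slc17a6, a gene of the rule, stood at 360.5 CPM in naive and 311.5 CPM in injured members, against 268.0 and 249.7 CPM in the reference, which shares that requirement. Of markers outside the rule, Lmx1b, a transcription factor of excitatory dorsal horn neurons, stood at 153.7 and 155.7 CPM in members and at 111.4 and 117.6 CPM in the reference. The neuronal gene Snap25, part of the vesicle fusion machinery, stood at 736.9 and 742.2 CPM in members. Slc17a8, also on the list of excitatory markers, had no UMI in members. Lmx1b and Snap25 were picked from a longer list of excitatory and neuronal markers, whose other levels are not given here. The summed level of 16 other genes of inhibitory neurons, Pax2, Rorb and Gal among them, was 180.2 and 132.5 CPM in members, above 98.6 and 72.7 CPM in the reference. Of the 16, Tfap2b, Gbx1, Lhx5, Pax8, Gata2 and Gata3 had no UMI in members, while Pax2 itself had 2 in each library, at 10.6 and 6.63 CPM against 3.41 and 1.57 CPM. Its part in the results was not tested.

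The reference had medians of 8320 and 10109 UMIs. Since both sexes were pooled, UMIs of both Xist and Y-linked genes in 1 nucleus can come from 2 cells or from free RNA. This held for 0 of 24 naive and 1 of 30 injured members, and for 4.53% and 5.60% of the reference. The 2 libraries shared 3 barcodes, none of them a member's. At 0 UMIs in members were 3 of 10 astrocyte, 4 of 7 oligodendrocyte precursor, 4 of 8 microglia and 0 of 8 oligodendrocyte markers. So were 4 of 7 endothelial and mural and 4 of 6 ependymal markers. Aqp4, Gfap, Gja1, Pdgfra, Csf1r, C1qa, Cdh5 and Foxj1 were among these, while the other markers had UMIs in members. The summed level of 10 astrocyte markers was 84.8 and 89.5 CPM in members against 105.4 and 120.5 CPM in the reference, and that of 8 oligodendrocyte markers was 153.7 and 245.2 CPM against 149.6 and 186.5 CPM.

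How the members lay among excitatory nuclei was seen in 21 clusters, formed from the 1382 nuclei without Tac2, other peptides, their receptors or the rule genes. Members fell into 15 of the 21. The largest number, 16 of 54 (29.6%), lay in cluster 13, a cluster of 37 nuclei in which 34 held Tac2 (91.9%) at 394.7 CPM. Of the 18 members with at least 2 Tac2 UMIs, 12 lay there, but only 4 of the 36 members with 1 UMI. Its leading genes were Hpse2, Tac2, Mylk, Sulf1, Tmem132d and Esr1. The cluster was not given a cell type name.

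The remaining members were spread thinly. Cluster 2 held 7 members among 141 nuclei, cluster 14 held 6 among 29, cluster 3 held 5 among 105, cluster 5 held 4 among 92, and clusters 8 and 12 held 3 each. In cluster 12, led by Tac1, 60.5% of 38 nuclei held Tac2, but most of them had another rule peptide and so were no members. Cluster 18, led by oligodendrocyte genes, held 1 member. The share of nuclei with Tac2 was between 0% and 28.4% in all clusters but 12 and 13.

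**Figure D2:**
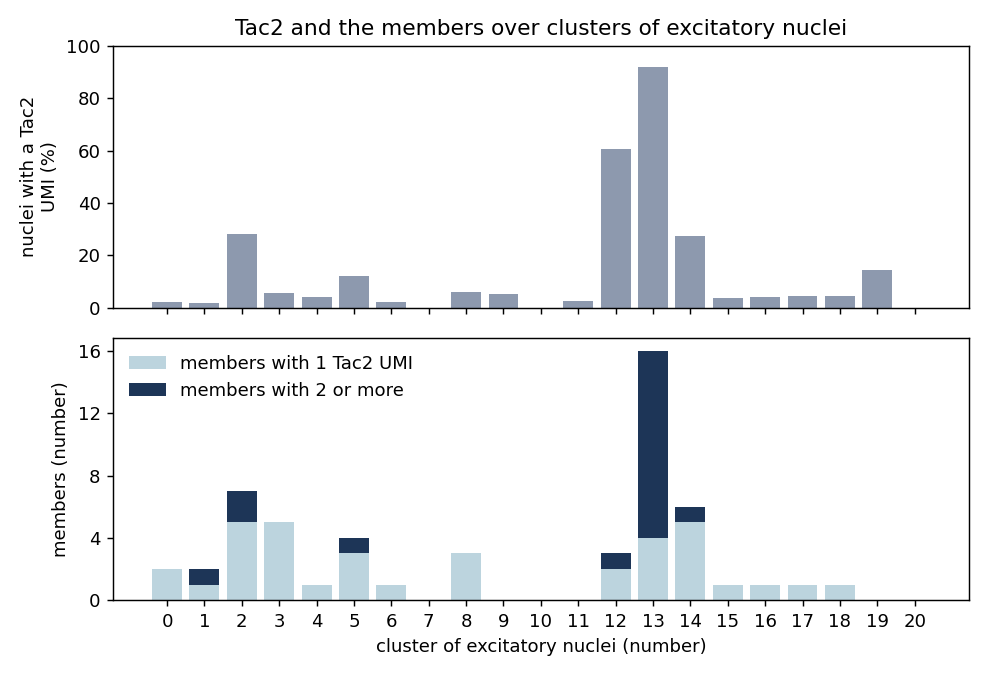
Upper panel, percent of nuclei with a Tac2 UMI in each of 21 clusters of excitatory nuclei; lower panel, number of members in each, stacked as members with 1 Tac2 UMI (light) and with 2 or more (dark). Cluster 13 reaches 91.9% and holds 16 members, 12 of them with at least 2 UMIs.

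To ask which other genes set the members apart, their counts were summed in each library and compared with the reference sum of the same library in edgeR. The quasi-likelihood test had the library as a block and 1 residual degree of freedom, so that the spread came mostly from all genes together. Of 9545 genes tested, 185 were higher in members (1.94%) and 194 lower (2.03%) at an adjusted p under 0.05. Together these were 379 genes (3.97%), and 373 of them went the same way in both libraries. Those that stood highest included Hpse2, Sst, Chrdl1 and Sulf1, and those that stood lowest Col26a1, Myo16 and Nxph1. The member sums held 188631 and 301797 UMIs, against 6157168 and 7012191 in the reference, which limits the precision for low genes.

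Hpse2, a heparanase-like protein that binds heparan sulfate, was in members the most abundant of the 12 genes that stood highest and the 12 that stood lowest. It stood at 742.2 CPM in naive and 818.4 CPM in injured members (140 and 247 UMIs), and at 72.3 and 56.8 CPM in the reference. Both libraries showed the difference, with ratios of 10.3 (counting interval 8.43 to 12.4) and 14.4 (12.3 to 16.9). The fitted log2 difference was 3.63 ± 0.15 (SE, 2 libraries; edgeR adjusted p = 1.7e-25). The UMIs came from 31 of 54 members, with 10.3% of them from 1 nucleus. The gene spans chr19:42786539-43388355 on the reverse strand.

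Sulf1, an extracellular enzyme that trims sulfate groups from heparan sulfate, stood at 212.1 and 119.3 CPM in members against 24.0 and 31.4 CPM in the reference. Its log2 difference was 2.50 ± 0.26 (edgeR adjusted p = 4.7e-10), with UMIs in 16 members. Of its 76 member UMIs, 65 came from the 16 members in cluster 13, of which Sulf1 was a leading gene. The other 38 members held it at 33.1 CPM (interval 16.5 to 59.2), against 27.9 CPM in the reference of both libraries. The 21 nuclei of cluster 13 that were no members held it at 460.7 CPM. This split was made after the values were seen and was not tested. Tmem132d, a neuronal membrane protein, stood at 286.3 and 278.3 CPM against 46.6 and 55.0 CPM, a log2 difference of 2.47 ± 0.18 (edgeR adjusted p = 5.0e-15), in 30 members. For these genes the lower of the 2 library levels in members lay above the higher one in the reference.

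The other genes named on the upper side were less abundant, at 31.8 to 90.1 CPM in members and 3.42 to 13.0 CPM in the reference. Chrdl1, a secreted antagonist of bone morphogenetic proteins, had the highest fitted difference of the 12, 3.85 ± 0.46 on the log2 scale, from 28 UMIs in 16 members. Sfrp1, a secreted modulator of Wnt signalling, had 30 UMIs in 17 members (log2 2.74 ± 0.39). Col15a1, a collagen, had 24 UMIs in 16 members (log2 3.28 ± 0.46), and Ism1, a secreted protein, 29 in 15 (log2 2.42 ± 0.39). Mylk, myosin light chain kinase, had 26 UMIs in 12 members, at 84.8 CPM in naive and 33.1 CPM in injured members (log2 2.70 ± 0.43). Tns1, Megf10 and the antisense transcript Kcnmb4os2 completed the set, at log2 2.86, 2.52 and 2.52. Megf10 stood at 48.9 CPM over all members but at 202.0 CPM in nuclei with oligodendrocyte markers, where 47 of 97 nuclei held it. In members 25% of its UMIs came from 1 nucleus. What part such RNA had in its member level was not tested. Whether strand was used in the authors' counting is not given in the sources used here, so Kcnmb4os2 and its partner Kcnmb4, itself higher in members at log2 1.98, could not be told apart; Kcnmb4 was looked up after the values were seen.

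**Figure D3:**
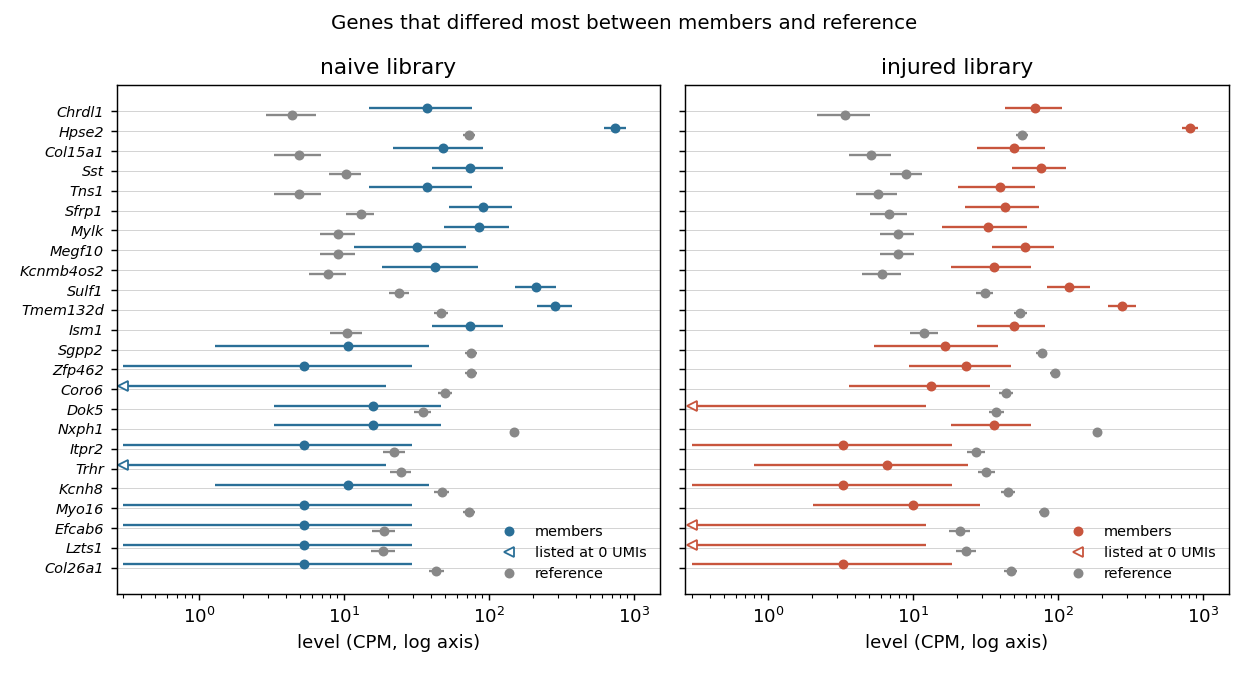
Levels in CPM (log axis) of the 12 named genes that stood highest and the 12 that stood lowest in members against the reference, in each library; points are summed levels, lines exact Poisson 95% intervals, coloured for members and grey for the reference, and open triangles mark genes listed at 0 UMIs. Hpse2 sits at 742.2 and 818.4 CPM in members against 72.3 and 56.8 CPM in the reference.

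At the other end, the named genes had few UMIs in members, between 1 and 14. Nxph1, a secreted ligand of neurexins, had 3 naive and 11 injured UMIs (15.9 and 36.4 CPM) against 149.1 and 186.3 CPM in the reference, a log2 difference of -2.58 ± 0.30 (edgeR adjusted p = 1.2e-08). Of its member UMIs, 57.1% came from 1 nucleus. Myo16, an unconventional myosin, had 1 and 3 UMIs against 72.8 and 80.0 CPM in the reference (ratios 0.0729, interval 0.00184 to 0.408, and 0.124, interval 0.0255 to 0.365). Zfp462, a zinc finger protein, had 1 and 7 UMIs against 74.9 and 94.8 CPM, and Sgpp2, a sphingosine phosphate phosphatase, 2 and 5 against 75.2 and 77.2 CPM. Nxph1 and Myo16 were low in both libraries.

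Col26a1 had 1 UMI in each library's members (ratios 0.122, interval 0.00308 to 0.687, and 0.0702, interval 0.00177 to 0.394), and Itpr2, an intracellular calcium release channel, likewise 1 and 1. Kcnh8, a potassium channel, had 2 and 1 UMIs against 47.3 and 45.2 CPM in the reference. For 5 further genes the members of 1 library had none: Lzts1, Efcab6 and Dok5 in the injured, and Trhr, the receptor of thyrotropin-releasing hormone, and Coro6 in the naive library. Their fitted differences, between -3.36 and -2.49 on the log2 scale, depend on the prior count and are not bounds.

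Calls differed in how firm they were. Of the 12 named higher genes, Chrdl1, Hpse2, Col15a1, Sst, Sulf1, Tmem132d and Ism1 stayed called in every alternative fit that tested them. Of the 12 lower genes, Nxph1 and Myo16 did. Among 32 further called genes of the lists, 12 did, among them Tshz2, Ebf3, Kcnip4, Ntm, Cntn3, Cntnap5c, Cdh18, Unc5d, Sema3e and Tnr. The other 20 lost the call in at least 1 alternative, such as Calb1, Chrm2 and Nrp2 after thinning to 4000 UMIs and Nos1, Rora and Kcnj6 without the library block.

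Among neuropeptide genes, somatostatin (Sst) set the members apart. It stood at 74.2 CPM in naive and 76.2 CPM in injured members (14 and 23 UMIs) and at 10.2 and 8.98 CPM in the reference. Its log2 difference was 2.99 ± 0.37 (edgeR adjusted p = 3.7e-08), and 6 of 24 naive (25%) and 10 of 30 injured members (33.3%) held a UMI, against 5.26% and 5.44% of the reference. Nuclei with oligodendrocyte markers held Sst in 1.03%. Penk, the enkephalin precursor, was lower in members, at 58.3 and 59.6 CPM against 174.1 and 110.8 CPM (log2 -1.18 ± 0.26, edgeR adjusted p = 0.0017). That call was lost without the library block (adjusted p = 0.087), with DESeq2 (0.19) and after thinning (0.059).

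Of the 31 precursors in the list, only 4 were tested, with 1 higher and 2 lower; the second lower gene was Nxph1, which is not a peptide transmitter. Of the rest, galanin (Gal) had 19 UMIs in 8 naive members and 2 UMIs in 2 injured members. The reference levels of Gal were 29.7 and 14.5 CPM, and its test did not pass (edgeR adjusted p = 0.22). Grp, a peptide of itch circuits, was found in 1 naive and 4 injured members, and Npy in 3 naive members with 1 UMI each. Apart from the 4 genes of the rule, 14 precursors had no UMI in any member, among them Nts, Cartpt, Crh, Vip and Calca. The member totals allow up to 15.9 CPM (naive) and 9.94 CPM (injured) at a count of 0.

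Neither tachykinin receptor tested passed the test. Tacr1, the substance P receptor, stood at 121.9 and 82.8 CPM in members and 114.7 and 115.2 CPM in the reference (log2 -0.21 ± 0.23, edgeR adjusted p = 0.84). Tacr3, the neurokinin B receptor, had 9 UMIs in 8 members (log2 0.55 ± 0.56, edgeR adjusted p = 0.82). The remaining tachykinin precursor gene, Tac4, had no UMI in members. Of 16 peptide receptors tested, Npffr2, a receptor of neuropeptide FF, was higher (42.4 and 49.7 against 16.4 and 15.3 CPM, log2 1.58 ± 0.39) and Trhr lower. Oprm1, the mu opioid receptor, stood at 148.4 and 112.7 CPM in members against 124.7 and 119.5 CPM (log2 0.08 ± 0.21, edgeR adjusted p = 0.95).

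Of 13 tested markers of dorsal horn excitatory types, 4 were higher, Sst, Nos1, Calb1 and Rorb, and 1 lower, Rora. Calb1, the calcium buffer calbindin, stood at 190.8 and 116.0 CPM in members against 43.9 and 36.8 CPM (log2 1.89 ± 0.23, edgeR adjusted p = 2.4e-08), in 24 members. Nos1, neuronal nitric oxide synthase, had 11 UMIs in 7 members, at 21.2 and 23.2 CPM against 5.03 and 4.56 CPM. Rorb, a nuclear receptor found in both excitatory and inhibitory dorsal horn cells, had 24 UMIs, of which 62.5% came from 1 nucleus. Maf, Reln, Cpne4, Nmur2, Megf11, Tacr1 and Tacr3 did not pass. The median log2 difference over the 13 was -0.12, against 0.00 over all genes tested. Counts of called genes in every list stand beside 1.94% higher and 2.03% lower over all 9545 genes tested. Lists differ in how abundant their genes are, which bears on how readily a gene is called. Whether any list stood out was not tested.

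Of 39 transcription factors of the dorsal horn, 6 were higher and 7 lower (median -0.08), beside 1.94% and 2.03% over all genes tested. Ebf3, a helix-loop-helix factor, stood at 450.6 and 487.1 CPM against 269.1 and 256.4 CPM (log2 0.86 ± 0.14, edgeR adjusted p = 1.5e-05). Tshz2, a zinc finger factor, was lower, at 53.0 and 159.1 against 256.8 and 287.2 CPM (log2 -1.25 ± 0.21). The higher genes also included Bhlhe22, Rorb, Nfix and Tshz3, and the lower ones Bcl11b, Esrrg, Mef2c, Bcl11a and Rora. Both libraries went the same way for Ebf3 and Tshz2, although the naive level of Tshz2 in members rested on 10 UMIs in 2 nuclei.

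Receptors for fast transmitters moved in both directions and by small amounts. Among 16 ionotropic glutamate receptor genes, Gria1 was higher (log2 0.42 ± 0.13) and Gria4 (log2 -0.41 ± 0.12), Grik1 and Grik3 lower. Of 6 metabotropic ones, Grm8 was higher and Grm7 lower, at log2 0.41 ± 0.12 and -0.45 ± 0.11. Of 18 GABA and glycine receptor genes, 3 were higher, Gabrb1 and Gabrb2 among them, and Gabra5, Glra1 and Gabbr2 were lower. Gabrb1, a GABA-A receptor subunit, stood at 1092 and 984.1 against 731.8 and 777.8 CPM (log2 0.46 ± 0.12). None of Gria1, Gria4, Grm7, Grm8, Gabbr2, Gabrb1 and Gabrb2 kept its call without the library block or with DESeq2, and Gria1, Grm8 and Gabrb1 also lost it without the filter on low genes.

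Among 39 potassium and HCN channel genes, 3 were higher and 6 lower (median -0.03), beside 1.94% and 2.03% over all genes tested. Kcnip4, a subunit that modulates A-type potassium channels, was lower in members, at 1707 and 2280 CPM against 4232 and 4553 CPM (log2 -1.13 ± 0.11, edgeR adjusted p = 5.9e-11). Kcnip1 and Kcnj6 were higher, at log2 0.48 ± 0.11 and 0.59 ± 0.15. Of 10 sodium channel genes only Scn7a passed (log2 0.77 ± 0.21), and of 20 calcium channel genes only Cacna2d3, which was lower.

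Of 14 receptors for amines and acetylcholine, 2 were lower and none higher. Chrm2, a muscarinic receptor, stood at 68.9 and 122.6 CPM in members against 203.8 and 243.9 CPM (log2 -1.17 ± 0.21). Htr2c, a serotonin receptor, stood at 79.5 and 285.0 against 378.9 and 434.8 CPM, with 40.6% of its member UMIs from 1 nucleus. Htr2c lost its call without the block and with DESeq2.

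Adhesion and guidance genes gave larger differences. Of 46 neuronal adhesion genes, 9 were higher and 9 lower (median -0.09), beside 1.94% and 2.03% over all genes tested. Cdh18, a cadherin, was higher at 5614 and 5000 CPM against 2840 and 2966 CPM (log2 0.88 ± 0.10, edgeR adjusted p = 1.2e-08). Cntnap5c was higher as well (log2 0.85 ± 0.14), while Ntm and Cntn3, both immunoglobulin-like adhesion proteins, were lower (log2 -1.37 ± 0.12 and -1.11 ± 0.13). Of 36 axon guidance genes, 2 were higher and 8 lower: Sema3e, a secreted semaphorin, and Nrp2, a semaphorin co-receptor, at log2 1.33 ± 0.18 and 1.07 ± 0.19, and on the lower side the netrin receptors Unc5d (-1.36 ± 0.18) and Unc5c (-0.71 ± 0.16), with Dcc, Sema3a, Plxna4, Epha4, Epha10 and Efna5.

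No gene passed among 4 immediate early, 9 heat shock, 62 ribosomal protein, 4 mitochondrially encoded and 72 nuclear oxidative phosphorylation genes tested. Unadjusted p was under 0.05 for 1225 of the 9545 genes. Some lists of other cells also moved: Tnr and Lhfpl3 of the oligodendrocyte precursor list, both also expressed by neurons, were lower (log2 -1.04 ± 0.17 and -0.59 ± 0.15), Slc1a3 was higher from 11 UMIs, and St18 was higher from 40 UMIs. Their part in the results was not tested.

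Members with 1 Tac2 UMI and those with more were also summed apart. This split, and the clusters below, were chosen after the values were seen and are described without a test. Hpse2 stood at 1356 CPM (interval 1190 to 1539) in the 18 members with at least 2 Tac2 UMIs, at 466.9 CPM (394.2 to 549.1) in the 36 with 1, and at 30.5 CPM in the 550 excitatory nuclei with none of the 5 peptides. Sst stood at 101.3 CPM (60.0 to 160.1) and 60.8 CPM (36.6 to 94.9), against 11.1 CPM. Calb1 stood at 253.2 and 83.1 against 18.4 CPM, and Sulf1 at 332.0 and 54.4 against 17.5 CPM. In these 4 genes the level of the members with 1 UMI lay between the other members and the peptide-free nuclei, although the intervals of Sst overlapped. For others the 2 member levels had overlapping intervals: Chrdl1 stood at 56.3 CPM with at least 2 Tac2 UMIs and 57.6 CPM with 1, Col15a1 at 50.6 and 48.0 CPM, Sfrp1 at 67.5 and 57.6 CPM, and Megf10 at 28.1 and 60.8 CPM.

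The 96 excitatory nuclei left out because Tac2 came with Pdyn, Tac1, Adcyap1 or Cck were close to members in Calb1 (132.0 CPM against 144.8 CPM over all members) and Sulf1 (153.1 against 155.0 CPM), but not in Sst (12.7 against 75.4 CPM). Their Hpse2 level was 523.7 CPM. Inhibitory nuclei with Tac2 held Hpse2 at 305.1 CPM and those without at 109.8 CPM, whereas Calb1 was at 3.25 and 4.15 CPM there. Hpse2 was thus not limited to members or to excitatory nuclei. Inhibitory nuclei with Tac2 also held Tmem132d at 225.2 CPM and Col15a1 at 42.3 CPM, against 281.4 and 48.9 CPM over all members. Sfrp1 stood at 45.0 CPM in inhibitory nuclei without Tac2, against 61.2 CPM in members. Others were low in inhibitory nuclei with Tac2, such as Sst at 11.1 CPM and Tns1 at 2.79 CPM. The 12 named lower genes were also below the reference in the 96 nuclei, so low levels of them were not particular to members. Nxph1 stood there at 24.3 against 168.9 CPM in the reference, Col26a1 at 12.7 against 45.4 CPM and Sgpp2 at 49.6 against 76.2 CPM.

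**Figure D4:**
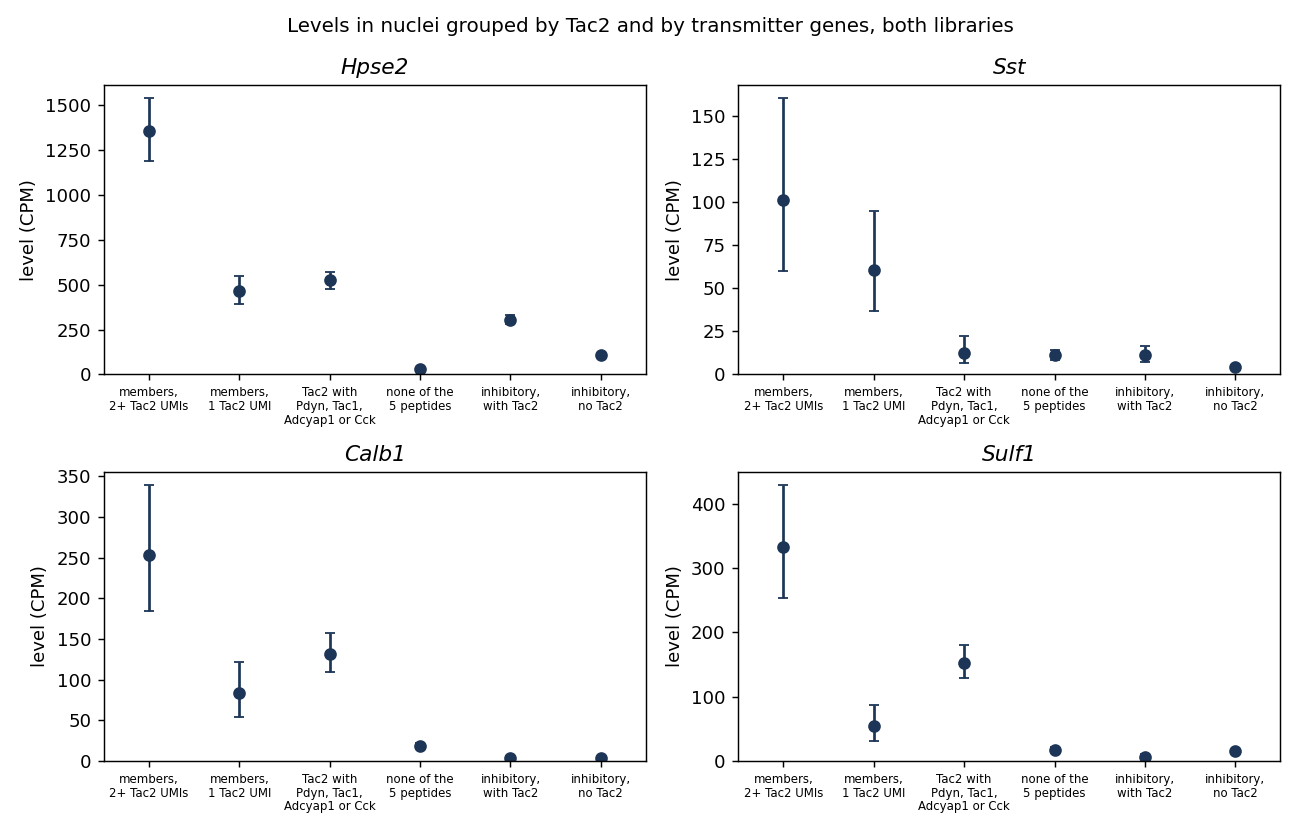
Levels in CPM of Hpse2, Sst, Calb1 and Sulf1 (linear axes from 0) in 6 kinds of nuclei, summed over both libraries; points are levels and bars exact Poisson 95% intervals. Members with 2 or more Tac2 UMIs are highest in all 4 panels, and Sst in nuclei with Tac2 and another rule peptide is at 12.7 CPM.

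By cluster, 25 members lay in clusters 12, 13 and 14, in which Hpse2 was among the 10 leading genes, and 29 in the other clusters. The first held Hpse2 at 1484 CPM and the second at 116.4 CPM. Since the clusters were chosen by Hpse2, a high level of it there was fixed by the choice. Tac2 was also among the leading genes of clusters 12 and 13, so its share there is a description only. Sst stood at 128.5 CPM (87.3 to 182.4) and 24.1 CPM (8.84 to 52.4). Tacr1 stood at 74.6 and 120.4 CPM, and Penk at 29.0 and 88.3 CPM, the opposite order. Of the 29, 25 held a single Tac2 UMI. Among excitatory nuclei without the 4 other peptides, 51.0% (interval 36.3 to 65.6) of those in clusters 12, 13 and 14 held Tac2, against 5.23% (3.53 to 7.42) in the others, at medians of 8668 and 9497 UMIs. Nuclei with oligodendrocyte markers held Tac2 in 3.09% (0.642 to 8.77) at a median of 2439 UMIs, so the 25 members with a single UMI in those other clusters cannot be told apart from background at this depth. The 79 nuclei of these 3 clusters that were no members also held Hpse2 (825.0 CPM) and Calb1 (100.4 CPM), and held Sst at 33.0 CPM.

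The last comparison, injured against naive members, asks about a lasting effect of the early incision. With 1 pool a group it has no test. The ratio of each named gene over all members is given beside its reference ratio or a range of these. For some genes an exact interval for counting error is given too. Of 1749 genes with at least 50 member UMIs, 131 were at least 1.5-fold higher (7.49%) and 115 at least 1.5-fold lower (6.58%) in the injured library. The log2 ratio had an SD of 0.415 over these genes, where counting error alone would give 0.3165. Counting error alone can thus put genes past the fold, and the counts are not numbers of genes changed by injury. The interval excluded 1 for 237 genes, and the genes named below were taken from the extremes of these. The members also differed in makeup: 7 of 30 injured and 9 of 24 naive members lay in cluster 13, and 12 injured but 2 naive members held only Y-linked UMIs, while 16 and 20 held only Xist. In the reference, injured and naive nuclei with only Y-linked UMIs made up 28.1% and 23.6%. The part of these differences in the ratios was not tested.

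On the upper side, Cnksr2, a synaptic scaffold protein, stood at 42.4 CPM in naive and 152.4 CPM in injured members, a ratio of 3.59 (interval 1.68 to 8.82) against 1.16 in the reference. Pkia, an inhibitor of protein kinase A, stood at 68.9 and 208.8 CPM, a ratio of 3.03 (1.65 to 6.0) against 1.02, with UMIs in 8 of 24 and 27 of 30 nuclei. Pcsk2, a convertase that processes peptide precursors, stood at 90.1 and 261.8 CPM, a ratio of 2.90 (1.70 to 5.23) against 1.12. Ankfn1 (3.13), Tbc1d12 (2.79), Chsy3 (2.76), Ttll11 (2.63) and Kcnab1 (2.50), a subunit of potassium channels, had reference ratios between 0.988 and 1.14. When UMIs of the 4 other peptides were allowed, the ratios of Kcnab1 (1.06), Pkia (1.15), Pcsk2 (1.20) and Chsy3 (1.28) fell below 1.5, and Ankfn1 was at 1.66. With at least 2 Tac2 UMIs Cnksr2 was at 1.53, and Kcnab1 was below 1.5 in nuclei with only Xist UMIs.

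Some of these ratios leaned on single nuclei. The nucleus with the most UMIs gave 22.8% of the member UMIs of Ankfn1, 20% of Kcnab1, 18.5% of Cnksr2 and 18.4% of Chsy3. The shares were highest for Htr2c and Tshz2. Htr2c had a ratio of 3.58, of which the nucleus with the most UMIs gave 40.6% of the total. Without the 1 injured member with both Xist and Y-linked UMIs, the ratio of Htr2c was 2.01 and that of Tshz2 fell from 3.00 to 1.67. In nuclei with only Xist UMIs, Htr2c was at 1.07 and Tshz2 at 0.598, and with the 4 peptides allowed they were at 1.88 and 1.25.

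On the lower side, Ubb, a ubiquitin gene, stood at 222.7 CPM in naive and 79.5 CPM in injured members, a ratio of 0.357 (interval 0.207 to 0.604). It was also low in the reference, at 0.557. Gas6, a secreted ligand of TAM receptors, stood at 286.3 and 106.0 CPM, a ratio of 0.370 (0.231 to 0.584) against 0.806. Ankrd28 stood at 233.3 and 86.2 CPM (0.369 against 1.09), and Rab27b, a small GTPase of vesicle release, at 169.6 and 66.3 CPM (0.391 against 1.34). Col19a1, a collagen, stood at 281.0 and 132.5 CPM (0.472 against 1.07), and at 0.858 in nuclei with only Xist UMIs. Nup98, Lpp, Eef1a1, Ints6 and Psap had ratios between 0.403 and 0.474, with reference ratios between 0.748 and 1.16. With the 4 peptides allowed, Rab27b (0.967), Nup98 (0.946), Col19a1 (0.881), Gas6 (0.743), Ints6 (0.706) and Psap (0.696) were no longer past the fold. With at least 2 Tac2 UMIs, Lpp and Psap (both 0.956), Rab27b (0.850) and Eef1a1 (0.828) were not, and Ubb was at 0.637. In nuclei with only Y-linked UMIs, of which 2 were naive, Nup98 was at 0.971 and Pcsk2 at 1.41.

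**Figure D5:**
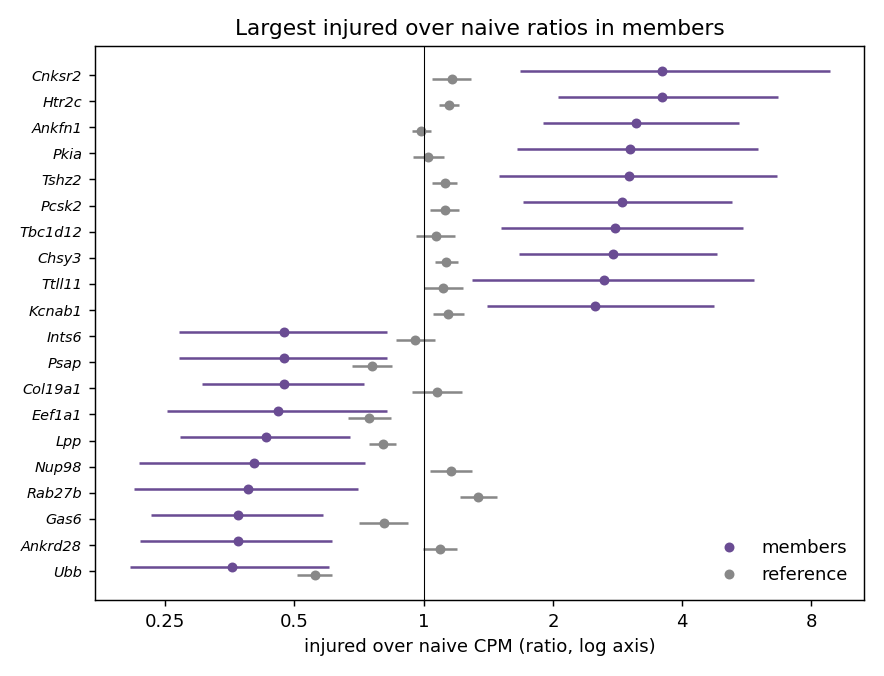
Ratio of injured over naive CPM (log axis) for the 20 named genes in members (purple) and in the reference (grey), with exact 95% intervals for counting error. Member ratios run from 0.357 for Ubb to 3.59 for Cnksr2, while reference ratios lie between 0.557 and 1.34.

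By list, the counts are set beside those over all 1749 genes, of which 951 (54.4%) were above 1 and 7.49% past 1.5-fold up. Of 35 neuronal adhesion genes, 27 were above 1 and 3 past 1.5-fold up, with none past it down (median log2 0.19, against 0.03 over all genes). The summed level of the list was 58447 and 66263 CPM in members, and it was also higher in the injured reference, at 56203 and 61211 CPM. Lrrtm4, a synaptic organizer, stood at 1368 and 2386 CPM (ratio 1.74 against 1.11), and Cntnap5c at 535.4 and 904.6 CPM (1.69 against 0.971). Of 18 potassium and HCN channel genes, 14 were above 1, with 2 past the fold up and 1 down (median log2 0.26). Kcnj3, a G-protein-gated channel subunit, had the highest ratio, 1.93 against 1.22. Of 12 GABA and glycine receptor genes, Gabrb2 (2.19 against 1.14) and Gabrg3 (1.65 against 1.07) were past the fold up. Gabra3 (0.578 against 1.11) was past it down. Unc5c and Unc5d, both lower in members than in the reference, were past the fold up among 21 axon guidance genes, and 1 gene was past it down. Unc5c had a ratio of 2.06 (interval 1.36 to 3.18) against 1.26, and Unc5d 2.08 (1.21 to 3.75) against 1.14. UMIs of Unc5d lay in 7 of 24 naive and 10 of 30 injured members, with 21.8% of them from 1 nucleus. No neuropeptide precursor outside the rule reached 50 UMIs.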

How the data were processed

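UMI counts of nuclei in 2 libraries of 8 pooled mice each were used. Per the submitters' processing notes, Cell Ranger 3.0.2 and Seurat were used with genome build mm10. Gene annotation, intron use and nucleus filters were not given in the sources used here. Raw counts for 19575 genes in 7610 nuclei were deposited by the authors. The deposited natural log values matched ln(1 + 10000 × count / nucleus total); of these, only their column names were used, to assign nuclei to libraries. No nucleus was removed, and no doublet caller was run.

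Members and gene lists were chosen with earlier results of these data known. Raw counts were summed per library and class. Members were compared with the reference in edgeR 4.0.16 (R 4.3.3): TMM scaling, quasi-likelihood test, library as block, genes with a mean of at least 10 CPM over the 4 sums, without the 10 rule genes, Benjamini-Hochberg over all genes tested. The SE is the log2 difference over the square root of F. Each library gives 1 member and 1 reference sum, so the block pairs sums of the same mice. The procedure was tested on simulated data of 9475 genes: it called 1 of 63 genes changed 2-fold, 33 of 62 changed 4-fold and 46 of 61 changed 8-fold, with 0 false calls. All genes were simulated with the same fixed spread and with no difference between libraries. The real spread was not set that way, so these counts give neither the power nor the false calls of the real comparison.

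Injured and naive members were compared by CPM ratio with exact conditional binomial intervals, at least 50 member UMIs a gene, and no test. Shares have exact Clopper-Pearson and levels exact Poisson 95% intervals. A count of 0 allows up to 3 counts. Excitatory nuclei were clustered in scanpy 1.11.5 (2000 variable genes, 30 components, 15 neighbours, resolution 1.0, seed 0). Named genes were the 12 highest and 12 lowest log2 differences among called genes with the same direction in both libraries and detection in at least 10% of members or of reference nuclei of each. For injured over naive they were the 10 highest and 10 lowest ratios whose interval excluded 1, with a UMI in at least 10% of members of a library. From each list the 2 highest and 2 lowest with at least 50 member UMIs were named too. Predicted, accession-like, mitochondrial, ribosomal, Y-linked and X-inactivation genes stayed out of both rankings. Other genes, and all those of the peptide, tachykinin and excitatory type lists, were named after their values were seen. The alternatives tried were another scaling, DESeq2 1.42.0, other filters, no library block, other limits of the rule, thinning to 4000 UMIs and leaving out nuclei or libraries. Some genes of the lists are not reported here.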

Additional observations from a re-analysis of the deposited data

Results flagged for a closer look

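In members the injured over naive ratio of Ankrd28 was 0.369, while in the reference it was 1.09, a ratio of ratios of 0.339. For Rab27b the ratios were 0.391 and 1.34, a ratio of ratios of 0.291. The interval of the reference ratio was 1.22 to 1.48 for Rab27b but 0.996 to 1.19 for Ankrd28, which includes 1. The difference between the 2 classes of nuclei was not tested, since each group is 1 pooled library. With UMIs of the 4 peptides allowed the member ratio was 0.967 for Rab27b and 0.593 for Ankrd28, and with at least 2 Tac2 UMIs it was 0.850 and 0.394. They were found among 20 genes named for their ratio in members.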

How the results depend on the processing

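Genes called higher and lower in members, 185 and 194, moved to 69 and 48 with DESeq2, to 98 and 79 with no replicate block for the library, to 81 and 96 after thinning to 4000 UMIs, and to 480 and 567 when UMIs of the 4 peptides were allowed. A peptide-free reference gave 282 higher, and members with at least 2 Tac2 UMIs 121 higher. Of the 56 called genes picked by the naming rules, 21 kept the call wherever an alternative tested them; 22 lost it without the block, 17 with DESeq2 and 30 after thinning, which leaves fewer UMIs.

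Genes past 1.5-fold, 131 up and 115 down of 1749, numbered 39 and 16 of 734 with at least 100 UMIs (5.31% and 2.18%), 81 and 51 of 509 with at least 2 Tac2 UMIs (15.9% and 10.0%), and 68 and 23 of 625 after thinning (10.9% and 3.68%). The lower count was 273 of 4919 with peptides allowed (5.55%), 71 of 1043 with only Xist nuclei (6.81%) and 45 of 364 with only Y-linked nuclei (12.4%; 2 naive nuclei). The log2 ratio reversed for Tshz2 (-0.74), with only Xist UMIs; for Rora (-0.54), Meis2 (-0.39) and Grik2 (-0.20), with only Y-linked UMIs; for Meis2 (-0.91) and Grm8 (-0.033), with at least 2 Tac2 UMIs; and for Cacna2d1 (-0.13) and Cntnap4 (0.11), with peptides allowed. The cause was not tested. With the median log2 ratio set to 0, 120 were past the fold up and 134 down.

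The share of members, 3.39% and 4.46%, was 1.13% and 1.49% with at least 2 Tac2 UMIs and 11.6% and 10.1% with peptides allowed. Members and reference were paired by library; between injured and naive members no paired analysis was possible because each group of mice is 1 pooled library.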
